A study of Homo sapiens with 6 samples.

Results

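Regions with a BRG1 peak in MR49F cells and no peak in any of the other 3 libraries were examined. The regions were chosen by joining the peaks of the 4 deposited lists wherever they shared at least 1 bp on chromosomes 1 to 22 and X, and by keeping every region with a peak in the MR49F BRG1 list only. Of 65315 regions in all, 5888 met this rule, a share of 9.01% (95% Wilson interval 8.80% to 9.24%). They were 13.7% of the 43115 regions with an MR49F BRG1 peak. Each was a single peak, with a median width of 506 bp, and together they covered 3.43 Mb. MR49F is an enzalutamide-resistant line derived from LNCaP, grown with 10 µM enzalutamide, an antiandrogen. LNCaP, its parent, is an enzalutamide-sensitive prostate cancer line, and no enzalutamide is given for it, so line and drug exposure cannot be told apart. Both lines were fixed with 2 mM DSG, a protein crosslinker, for 45 min and with 1% formaldehyde for 10 min, and chromatin was precipitated with 4 µg of an antibody to BRG1 or to SMARCC2. There was 1 library per line and antibody, so no value below has a replicate check and no test between libraries was possible. The inputs of both lines were not analysed here.

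BRG1, encoded by SMARCA4, is an ATPase of the SWI/SNF complexes, which use ATP to slide or evict nucleosomes and keep regulatory DNA open. SMARCC2, also called BAF170, is a scaffold subunit of these complexes, and its paralog SMARCC1 can take its place, so a complex can hold BRG1 without SMARCC2. SWI/SNF is known to act at enhancers and at gene starts. Where a library has no peak, its signal stayed under the caller's threshold, which leaves room for weaker binding. All 10 luminal prostate marker genes had at least 1 MR49F BRG1 peak assigned, against 4 of 10 leukocyte and 7 of 10 fibroblast markers and 68.6% of all protein-coding genes.

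A few of the regions had their summit in a promoter window, from 250 bases before to 50 bases after an annotated start of a protein-coding gene. There were 92 such windows, at 90 genes, which is 0.415% of the 22156 windows with a RefSeq sequence on assembly GRCh38.p14, the build of the peak lists. Their median GC content was 66.8%, against 71.0% in the 372 windows that held an MR49F BRG1 summit of a region in all 4 lists and 62.3% in all windows. The 250 bases before the start are shown for 6 of them, as examples of promoters that carried a peak of BRG1 alone. These are the strongest whose bases lie outside every annotated gene. All 6 are printed 5′ to 3′ on the strand of the gene, and capitals mark the motifs searched for.
HLCS: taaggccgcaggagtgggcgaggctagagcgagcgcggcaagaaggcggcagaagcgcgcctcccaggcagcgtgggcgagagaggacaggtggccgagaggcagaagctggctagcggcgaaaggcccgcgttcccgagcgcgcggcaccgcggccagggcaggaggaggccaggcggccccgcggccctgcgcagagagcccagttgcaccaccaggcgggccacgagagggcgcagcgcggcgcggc
CRYBG2: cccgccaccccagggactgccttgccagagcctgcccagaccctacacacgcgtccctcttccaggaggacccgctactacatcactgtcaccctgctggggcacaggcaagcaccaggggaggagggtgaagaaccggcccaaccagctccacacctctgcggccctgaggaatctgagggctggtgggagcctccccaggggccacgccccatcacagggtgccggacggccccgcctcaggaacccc
PHLDB3: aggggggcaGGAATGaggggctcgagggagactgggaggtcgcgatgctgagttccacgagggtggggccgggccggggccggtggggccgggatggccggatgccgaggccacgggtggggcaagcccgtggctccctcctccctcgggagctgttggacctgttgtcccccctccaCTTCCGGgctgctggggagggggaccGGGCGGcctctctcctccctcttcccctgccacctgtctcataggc
VPS26C: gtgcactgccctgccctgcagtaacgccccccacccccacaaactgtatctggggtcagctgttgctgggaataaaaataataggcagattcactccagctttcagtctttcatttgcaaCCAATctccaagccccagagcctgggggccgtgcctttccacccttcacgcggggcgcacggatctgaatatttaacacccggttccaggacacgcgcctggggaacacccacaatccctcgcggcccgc
LAGE3: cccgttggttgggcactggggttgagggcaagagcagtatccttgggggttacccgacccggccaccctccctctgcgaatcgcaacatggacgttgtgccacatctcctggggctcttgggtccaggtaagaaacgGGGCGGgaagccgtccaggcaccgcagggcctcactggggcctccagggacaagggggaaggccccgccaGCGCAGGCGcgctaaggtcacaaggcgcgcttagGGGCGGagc
KIAA1586: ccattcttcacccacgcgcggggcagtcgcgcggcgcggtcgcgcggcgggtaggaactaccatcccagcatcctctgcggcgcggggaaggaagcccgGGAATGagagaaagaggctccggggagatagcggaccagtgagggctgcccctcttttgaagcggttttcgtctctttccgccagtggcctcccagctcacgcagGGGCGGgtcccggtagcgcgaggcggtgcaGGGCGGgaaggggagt

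The HLCS stretch (chr21:36990212-36990461 on the minus strand) precedes the gene for holocarboxylase synthetase, which attaches biotin to carboxylases. It held 32 CpG pairs, no searched motif, and the highest pileup of the 6, 42 tags over a local background of 8.14 tags, a fold enrichment of 4.71. Pileup is the number of tags that cover the summit, which lay 42 bp downstream of the start, just past the printed bases. The CRYBG2 stretch (chr1:26354131-26354380 on the minus strand) had 10 CpG pairs and a pileup of 25 tags, and the nearest peak of another list lay 77.3 kb away. The PHLDB3 stretch (chr19:43504747-43504996 on the minus strand) had a pileup of 20 tags over the lowest background of the list, 2.62 tags, at a summit 29 bp downstream of the start and so also past the printed bases, which held an ETS, an SP1 and a TEAD motif. The VPS26C stretch (chr21:37268109-37268358 on the minus strand) precedes the gene for a subunit of the retriever complex, which recycles cargo from endosomes. Its pileup was 27 tags, it held 1 NFY motif, and a peak of another list lay 565 bp from the region. The LAGE3 stretch (chrX:154479282-154479531 on the minus strand) precedes the gene for a subunit of the KEOPS complex, which modifies tRNA. It had a pileup of 22 tags with an NRF1 motif and 2 SP1 motifs, and a peak of another list lay 488 bp from the region. The KIAA1586 stretch (chr6:57046443-57046692 on the plus strand) had 28 CpG pairs, a pileup of 20 tags, 2 SP1 motifs and a TEAD motif. The GC content of the 6 stretches was between 58.4% (VPS26C) and 75.2% (HLCS), against the median of 62.3% in all windows, and no motif was in all 6.

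16 short motifs were searched on both strands of the whole windows, and matches of different motifs were allowed to overlap. A match is a description of the letters and not a binding site. GGGCGG (SP1) was in 58.7% of the 92 windows that held a summit of a region called in MR49F BRG1 alone, against 56.3% of all windows. CCAAT (NFY) was in 29.3% against 34.6%, AGGGGGC (CTCF) in 18.5% against 17.5%, and CCGGAAG (ETS) in 17.4% against 12.8%. GCGCANGCG (NRF1) was in 9.78% against 9.66%, AGAACA (part of the steroid response element) in 9.78% against 11.7%, and CACGTG (E-box) in 8.70% against 8.34%. TGANTCA (AP-1) was in 7.61% against 6.16%, GGAATG (TEAD) in 6.52% against 12.2%, and AAGATGG (YY1) in 4.35% against 6.04%. TGACGTCA (CRE) was in 3.26% against 2.26%, and TATAAA, the core element for the TATA-binding protein, in 3.26% against 9.46%. TGTTTAC (FOXA) was in 2.17% against 2.85%, and TCAGCACC (part of the REST element) in 1.09% against 1.64%. ACTACAA (ZNF143) was in 0 of 92, which allows a share of up to 3.26% (3 counts of 92; the Wilson upper limit is 4.01%), against 2.85% of all windows. The 95% intervals overlapped for 15 of the 16 motifs. The exception was TTTCCCGC (E2F), in 5 of the 92 windows (5.43%, 2.34% to 12.1%) against 2.00% of all windows (1.82% to 2.19%). It was also in 9 of the 198 windows of MR49F regions with both antibodies and no LNCaP peak (4.55%, 2.41% to 8.41%). In windows of regions in all 4 lists it was in 7 of 372 (1.88%, 0.91% to 3.83%). For LNCaP BRG1 alone it was in 2 of 101 (1.98%, 0.54% to 6.94%). Both of these intervals overlap that of the 92 windows. SP1 was in 73.4% of the windows of regions in all 4 lists (68.7% to 77.6%), above the interval of the BRG1-alone windows (48.5% to 68.2%).

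The regions were the weak end of the MR49F BRG1 list, which follows in part from the rule: a region is kept when 3 other libraries miss it. These values therefore describe the regions and support nothing. Median pileup was 17 tags (quartiles 15 and 21, range 10 to 67) in regions called in MR49F BRG1 alone and 29 tags in the other MR49F BRG1 peaks. Local background at the summit had a median of 3.77 tags and 4.77 tags in the same 2 sets. Fold enrichment over background, as the authors' peak caller gave it, had a median of 3.60 (1.79 to 9.68) in the regions and 5.06 in the other peaks. The median −log10 q was 4.54, with a highest value of 32.8, against 10.8 in the other peaks. Of the 4422 weakest MR49F BRG1 peaks by −log10 q, 44.2% had no partner in another list, and of the 4423 strongest 1 had none. At the caller's threshold, 55 of the regions had a −log10 q under 2.1, the lowest at 2.02, and 280 had a −log10 q of 10 or more. At the edge of the overlap rule, 54 of the regions lay within 50 bp of another list's peak without touching it and had a median fold of 3.34. Just outside the rule, 80 MR49F BRG1 peaks overlapped another list's peak by at most 50 bp and had a median fold of 3.25. Both of these sets had a median pileup of 17 tags.

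**Figure D1:**
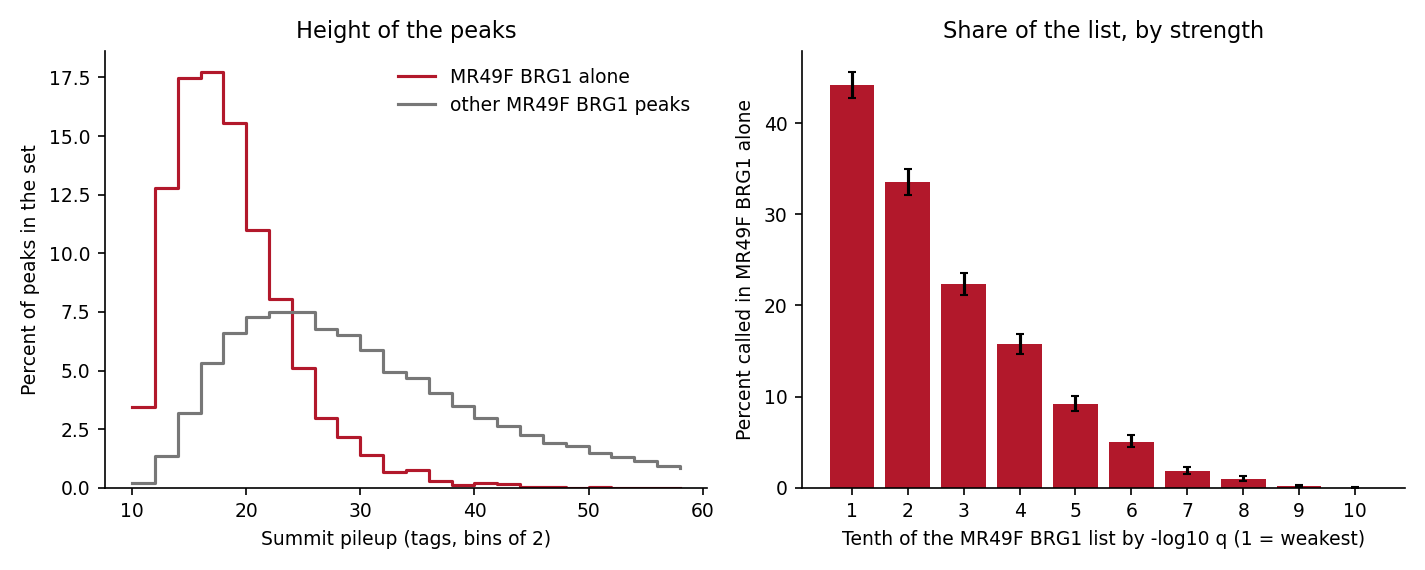
Left, percent of peaks (y axis) by summit pileup in tags (x axis) for regions called in MR49F BRG1 alone (red, 5888) and the other MR49F BRG1 peaks (grey, 38341), up to 59 tags. Right, percent called in MR49F BRG1 alone in 10 equal slices of the MR49F BRG1 list, ordered by −log10 q, with 95% Wilson intervals; it is 44.2% in the weakest slice and under 1% in the 3 strongest.

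The regions were found at gene ends about as often as MR49F regions that had both antibodies. A region was placed at a gene end when its midpoint lay within 1 kb of either end of a protein-coding gene, otherwise inside a gene or between genes. Of the 5888 regions, 1047 were at gene ends (17.8%, 16.8% to 18.8%), 2658 inside genes (45.1%) and 2183 between genes (37.1%). Regions with both antibodies in MR49F and no peak in LNCaP had 18.7% at gene ends (18.0% to 19.4%), and regions in all 4 lists had 23.8%. The other regions seen in a single library had fewer at gene ends, with intervals that did not overlap that of MR49F BRG1 alone. The share was 6.57% for MR49F SMARCC2 alone (6.05% to 7.13%), 9.57% for LNCaP BRG1 alone (8.88% to 10.3%) and 7.46% for LNCaP SMARCC2 alone (6.36% to 8.73%). Regions with BRG1 in both lines and no SMARCC2 had 23.6% at gene ends. Of the 862 gene-end regions whose gene has a strand in the promoter table, 86.9% were nearest to the 5′ end of the gene.

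Among the regions, the share at gene ends went with height. For the shares by height, peaks were counted and each was placed by its summit, not by the midpoint of its region. The share was 10.8% at 10 to 15 tags, 16.04% at 16 to 20 tags, 27.3% at 21 to 25 tags, 36.0% at 26 to 30 tags and 33.0% from 31 tags up. In MR49F regions with both antibodies and no LNCaP peak, the shares at the same heights were 12.2%, 14.8%, 20.1%, 22.1% and 20.7%, so these sets lay apart by more than their intervals from 21 tags upwards. Against the MR49F BRG1 peaks in neither of these sets, the intervals overlapped at 21 to 25 tags and from 31 tags up. The shares there were 24.4% (23.1% to 25.7%) and 26.6% (25.8% to 27.3%), against intervals of 24.7% to 30.0% and 26.4% to 40.2% in MR49F BRG1 alone. At 26 to 30 tags the share was 29.4% in those peaks (28.0% to 30.8%), below the interval of MR49F BRG1 alone (31.2% to 41.2%). Local background moved with this: its median was 3.04 tags at 10 to 15 tags and 7.38 tags from 31 tags up in the regions, against 3.04 and 5.21 tags in the MR49F regions with both antibodies. Its part in the difference was not tested. With regions placed by midpoint again, those at gene ends had a median pileup of 20 tags and a median background of 4.77 tags. Inside and between genes alike, these medians were 17 and 3.76 tags. Median fold was 3.54 at gene ends, 3.60 inside genes and 3.64 between genes.

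**Figure D2:**
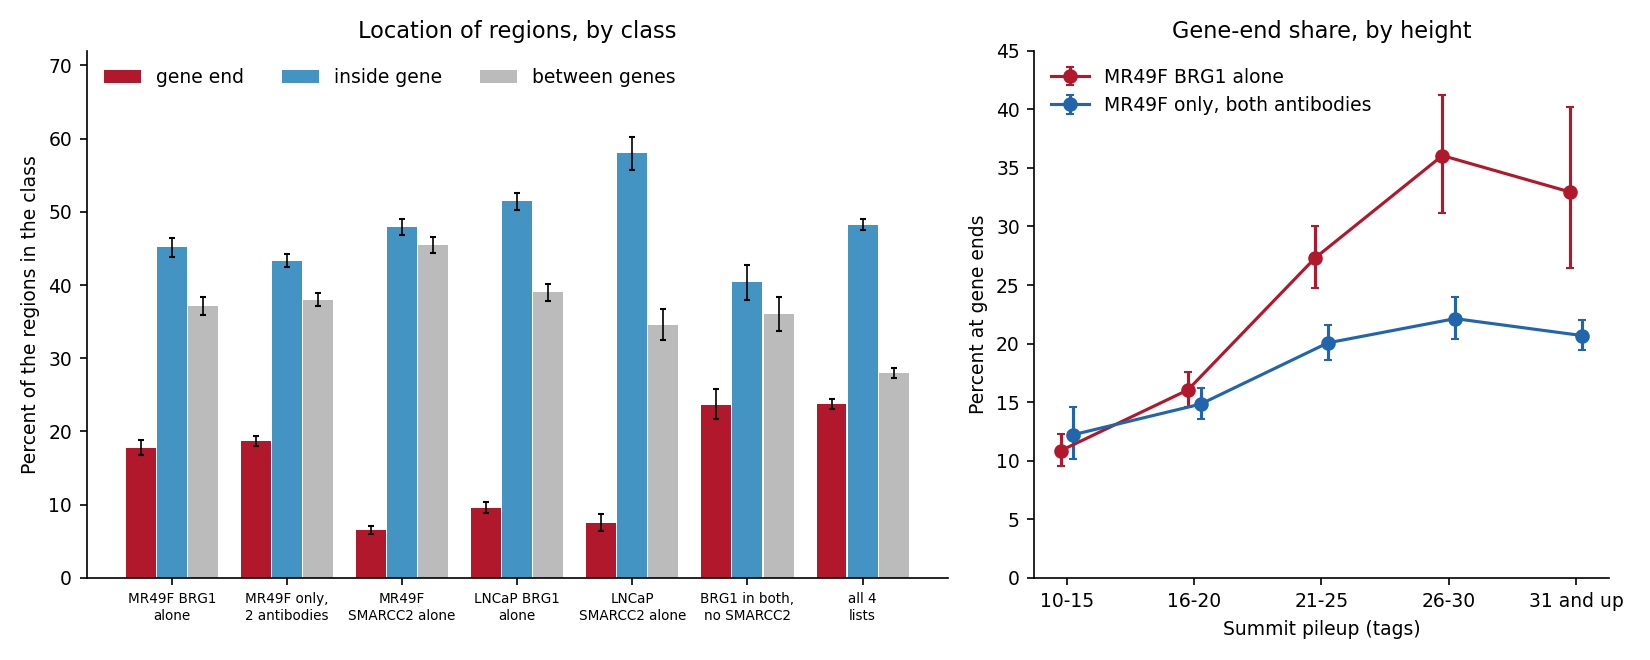
Left, percent of regions (y axis) at gene ends, inside genes and between genes for regions called in MR49F BRG1 alone (5888) and 6 other classes of region, with 95% Wilson intervals. Right, percent of peaks with the summit at a gene end, by summit pileup, for MR49F BRG1 alone (red) and MR49F regions with both antibodies and no LNCaP peak (blue). The sets overlap up to 20 tags and lie apart above, with 36.0% against 22.1% at 26 to 30 tags.

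Around starts, BRG1 summits lay on both sides, with a low just before the start. Of the 5659 regions outside chromosome 8, 999 had their summit within 1500 bp of the nearest start of a protein-coding gene (17.7%). The summits peaked between 150 and 300 bp downstream, with 161 regions, and had a lower maximum between 600 and 300 bp upstream, with 87 and 85 regions in the 2 bins of 150 bp. The bin just before the start held 40. Of the 999, 423 were upstream (42.3%, 39.3% to 45.4%). MR49F BRG1 summits were upstream in 24.5% of cases (22.8% to 26.4%) in regions with both antibodies in MR49F and no LNCaP peak, and in 25.2% (23.8% to 26.6%) in regions in all 4 lists. With pileups of up to 25 tags only, these shares were 26.5% (23.8% to 29.3%) and 34.6% (31.1% to 38.3%), still below the interval of MR49F BRG1 alone. Among LNCaP BRG1 summits of regions called in LNCaP BRG1 alone, 52.6% (48.7% to 56.6%) were upstream. For MR49F SMARCC2 alone the share was 34.5% (30.4% to 38.8%). With the starts of all gene types, which adds non-coding starts on the other strand, the share was 39.2% (36.4% to 42.0%) in MR49F BRG1 alone and 24.5% in MR49F regions with both antibodies. Both alternatives were added after the values were seen. The rule drops every region that touches another list's peak, and summits of regions in all 4 lists lay mostly downstream of starts. The part of the rule in the upstream share was not tested, and the limit on pileup does not remove it.

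The upstream regions stood beside other peaks more often than the downstream ones. A peak of another list lay within 1 kb of 249 of the 423 upstream regions (58.9%, 54.1% to 63.5%) and of 157 of the 576 downstream regions (27.3%, 23.8% to 31.04%). Their heights were alike, with median pileups of 19 and 20 tags and median backgrounds of 4.99 and 4.56 tags.

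**Figure D3:**
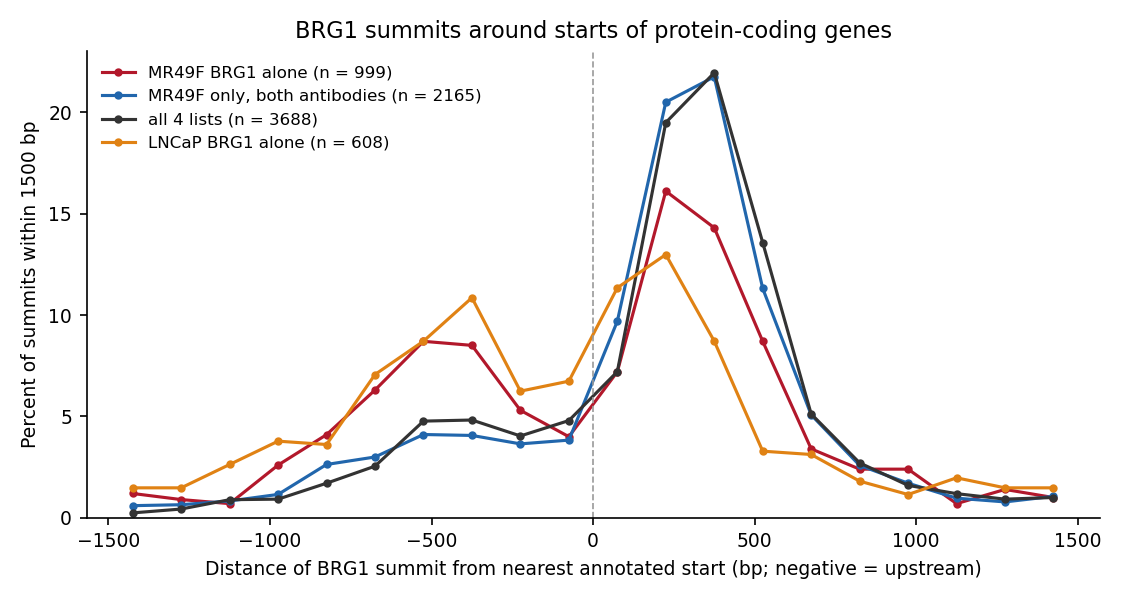
Percent of BRG1 summits within 1500 bp (y axis) by distance from the nearest annotated start in bins of 150 bp (x axis, negative upstream), for MR49F BRG1 alone (red), MR49F regions with both antibodies and no LNCaP peak (blue), all 4 lists (black) and LNCaP BRG1 alone (orange). All sets peak downstream of the start, and 42.3% of the red summits lie upstream of it, against 24.5% of the blue ones.

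Many of the regions lay near a peak of another library. The gap to the nearest such peak was under 1 kb for 1317 regions (22.4%, 21.3% to 23.4%), under 10 kb for 60.4% and under 50 kb for 91.5%, with a median of 6347 bp. The median gap was 8749 bp to MR49F SMARCC2 peaks, 14474 bp to LNCaP BRG1 peaks and 26338 bp to LNCaP SMARCC2 peaks, lists that differ in length. The share within 1 kb was 11.8% for MR49F SMARCC2 alone (11.1% to 12.5%) and 18.3% for LNCaP BRG1 alone (17.4% to 19.3%). The 1317 regions within 1 kb of another list's peak were at gene ends in 29.8% of cases (27.4% to 32.3%), against 14.3% (13.3% to 15.4%) for the 4571 farther away. The 501 regions at least 50 kb from every peak of another list had a median pileup of 16 tags, a median fold of 3.87 and 15.8% at gene ends (12.8% to 19.2%).

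The missing SMARCC2 peak in MR49F can be read against what that library could have called. The local backgrounds of the MR49F lists moved together. At 2200 pairs of MR49F BRG1 and MR49F SMARCC2 summits at most 5 bp apart, the ratio of backgrounds had a median of 1.10, and 87.5% of pairs lay within 2% of it. MR49F BRG1 over LNCaP BRG1 had no such common ratio, with a 5th to 95th percentile of 0.38 to 1.78 over 987 pairs, so this was done for SMARCC2 in MR49F only. With the background of each region, the SMARCC2 pileup that would have reached the weakest p-value of its list was 10 to 57 tags, with a median of 12. BRG1 pileup scaled to the SMARCC2 depth had a median of 15.6 tags. In 500 of the 5888 regions (8.49%) the scaled BRG1 pileup was itself under that limit. In 1252 (21.3%) a SMARCC2 pileup of 0.67 times the scaled BRG1 pileup would have been enough for a call, and in 142 (2.41%) one of 0.5 times would have been. Where both antibodies were called in MR49F only, the SMARCC2 pileup over the scaled BRG1 pileup had a median of 1.15, and 2.57% of 11968 regions had a ratio of at most 0.67. Those regions were chosen by their SMARCC2 call, which leaves out low ratios, so these values are no measure of how often SMARCC2 is low at BRG1 peaks. The limit leaves out that the caller also needs a run of raised signal, the narrowest MR49F SMARCC2 peak being 350 bp wide. The 1252 regions with the lower limit were at gene ends in 19.7% of cases (17.6% to 22.0%), inside genes in 40.0% and between genes in 40.3%.

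The regions were spread over all chromosomes. As a share of a chromosome's regions with an MR49F BRG1 peak, MR49F BRG1 alone was highest on chromosome 19, at 23.4% (311 of 1329, 21.2% to 25.8%), and 41.8% of those 311 regions were at gene ends. It was 19.1% on chromosome 22, 17.0% on X, 16.8% on 16 and 16.6% on 17, and lowest on chromosomes 5 and 3, at 10.3% each. For the ratio of MR49F to LNCaP background, the median of each BRG1 list was first divided by that list's own median outside X. This takes out depth, and the ratio can follow DNA copy number. It was 1.32 on X, 0.77 on chromosome 19 and 0.73 on chromosome 16, and its part in these shares was not tested. Of 2071 windows of 1 Mb that held such a region, 347 held 5 or more, and the median was 2. The most, 23 of the 67 MR49F BRG1 regions there, lay between 82 and 83 Mb of chromosome 17, around FOXK2, FASN (fatty acid synthase), NARF, SECTM1 and SLC16A3 (a lactate exporter). Next came 18 of 38 regions between 48 and 49 Mb of chromosome 19, around SULT2B1 and TMEM143.

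Of the regions, 4938 (83.9%) had the end of a protein-coding gene within 100 kb and were assigned to the gene with the nearest end. At least 1 was assigned to 3929 of 19974 genes (19.7%) and at least 2 to 757 (3.79%). For 895 of the 3929 genes (22.8%), MR49F BRG1 alone was the only class of MR49F BRG1 region, and 1074 (27.3%) had no LNCaP BRG1 peak. How many of all 13702 genes with an MR49F BRG1 region lack a LNCaP BRG1 peak is not given here. These counts therefore show no excess and no gain in MR49F. Among the 12 genes with the most regions were STXBP5, ITPRID2, GRB10, DDC, TTC29, BCOR, MIPEP, FOXK2, THRAP3, CHD6 and ABCC4. All 12 also had at least 1 region with both antibodies in MR49F and no LNCaP peak.

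STXBP5, or tomosyn, which binds SNARE proteins and holds back vesicle fusion, had 13 such regions among its 25 MR49F BRG1 regions. Of these, 12 lay inside the gene, spread with the other over 130.4 kb, with pileups from 14 to 29 tags and a median of 18. The strongest, chr6:147207076-147208301, lay in the gene 3272 bp from its end, with 27 tags over 3.45 of background and a −log10 q of 13.1. MR49F SMARCC2 had 19 peaks assigned to the gene, LNCaP BRG1 3 and LNCaP SMARCC2 3. Of the 13 regions, 4 lay within 1 kb of a peak of another list. The MR49F to LNCaP background ratio, taken over the peaks in a 10 Mb window around the gene, was 0.79.

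ITPRID2, which tethers IP3 receptors to actin, had 8 of its 13 MR49F BRG1 regions in this class, all inside its span of the genome, with pileups from 14 to 23 tags. LNCaP BRG1 had 2 peaks there and MR49F SMARCC2 had 6. GRB10, an adaptor that restrains insulin and IGF receptors, and its neighbour DDC, which makes dopamine and serotonin from their precursors, had 8 regions each, all inside the genes. GRB10 was also covered in the other libraries, with 28 MR49F SMARCC2, 17 LNCaP BRG1 and 8 LNCaP SMARCC2 peaks. DDC had 10, 2 and 1 in the same order. TTC29, a gene for a sperm flagellum protein, had 7 regions with a median of 23 tags, the tallest of them at 37 tags and 73467 bp from the gene.

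BCOR, a corepressor of BCL6 that also sits in a Polycomb complex, had 7 regions over 284.1 kb with pileups from 12 to 29 tags. The background ratio in the 10 Mb window around BCOR was 1.54. MIPEP, a mitochondrial peptidase, had 7 with a median of 21 tags. FOXK2, a forkhead factor, had 6, the tallest of 35 tags at its gene end over a background of 11.9 tags, which gave a fold of 2.79. THRAP3, which acts in RNA processing, and CHD6, a chromatin remodeller, had 5 each. ABCC4, an exporter of cyclic nucleotides and drugs, had 5 low regions of 13 to 16 tags, and 4 of them lay within 1 kb of another list's peak.

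**Figure D4:**
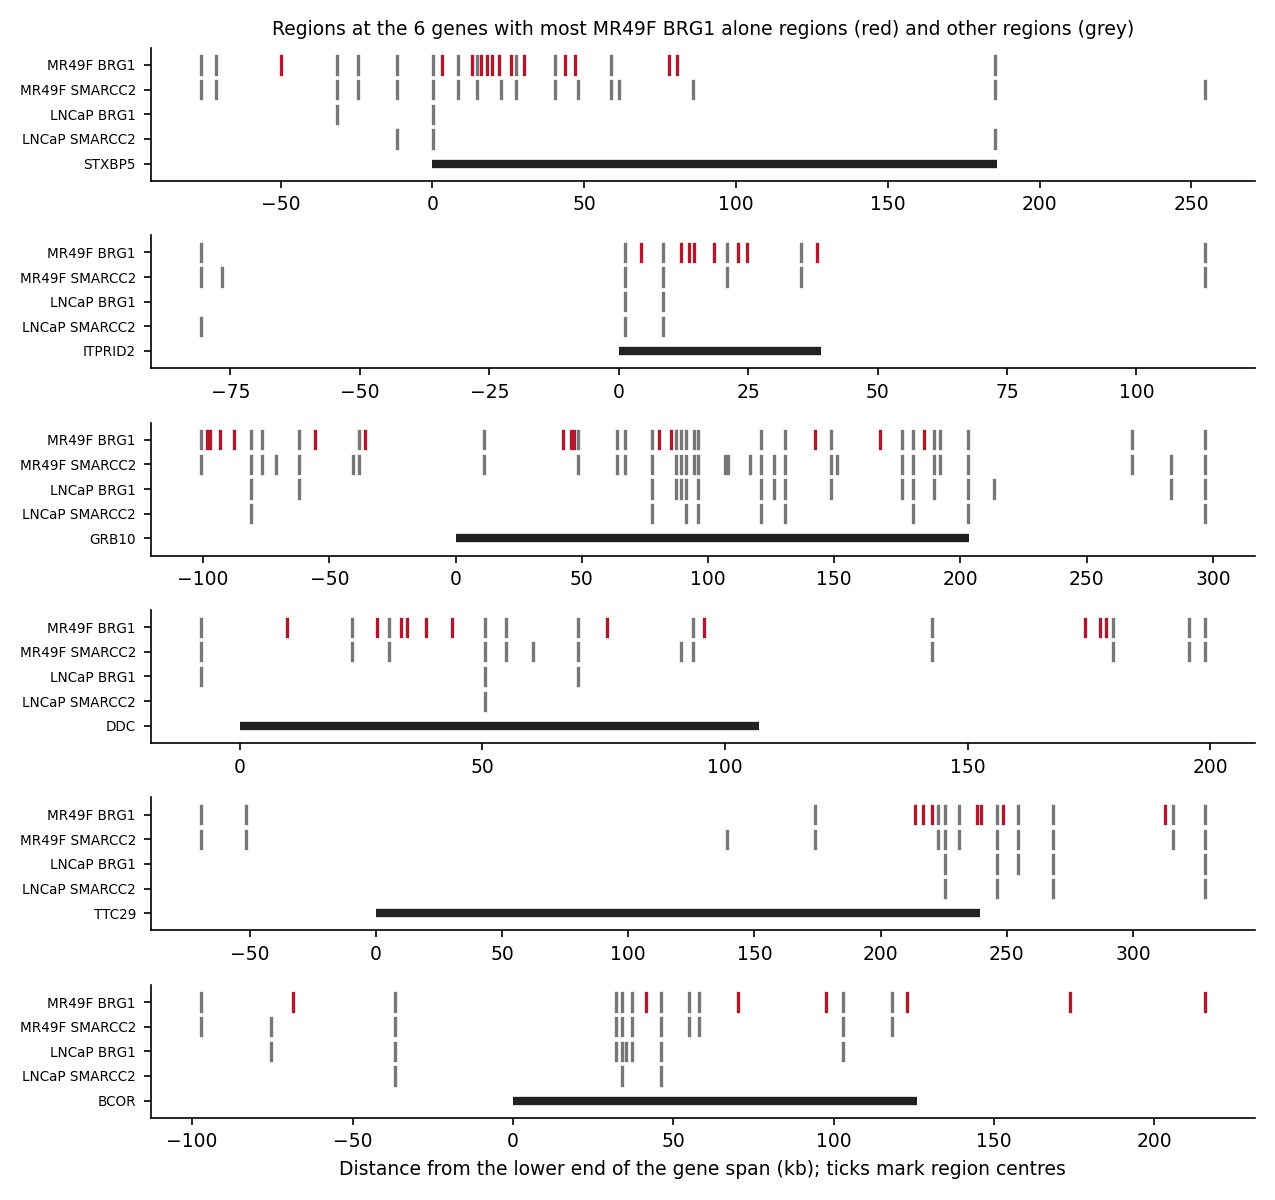
Region centres (vertical ticks) in each of the 4 lists (rows) around the 6 genes with the most regions called in MR49F BRG1 alone (red), within 100 kb of each gene span (black bar); the x axis is the distance in kb from the lower end of the span. Red ticks stand between grey ticks of the other classes, as in STXBP5 with its 13 regions, and GRB10 and DDC are neighbours, so each panel shows regions assigned to the other.

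Of the 10 strongest regions, 6 lay between genes. The highest −log10 q, 32.8, belonged to chrX:115726320-115728083, with 51 tags over 4.38 of background, a fold of 9.66. It lay 76.3 kb from PLS3, which bundles actin, and a SMARCC2 pileup of 13 tags would have been called there, 0.28 times the scaled BRG1 pileup. The MR49F to LNCaP background ratio in the 10 Mb window around this region was 1.54, the highest of the 10, and its part was not tested. Next came a region of 43 tags 7.96 kb from ZNF33B, a zinc finger gene. The third, of 42 tags, covered the end of STARD7, which carries phosphatidylcholine to mitochondria, and 1.36 kb separated it from another list's peak. The 2 after it, on X (34 tags) and on chromosome 4 (40 tags), had no gene within 100 kb. They were followed by regions near MYL12B (a myosin light chain, 42 tags), MMADHC (cobalamin metabolism, 37 tags) and NMS (the neuropeptide neuromedin S, 32 tags at its gene end). The last were in NISCH (42 tags) and at ALKBH7 (43 tags at its gene end). At these 10 regions, a SMARCC2 pileup between 0.28 and 0.41 times the scaled BRG1 pileup would have reached the threshold.

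Gene lists were read as the share of genes with at least 1 region, against 19.7% of all genes, and as the share of their MR49F BRG1 regions in this class, against 14.1% over all genes. The median number of regions per gene was 1 in 4 of the 21 lists (androgen response, luminal prostate, AP-1 factors and receptor tyrosine kinases) and 0 in the other 17 and in all genes. In the androgen response list, 17 of 30 genes had a region, but these genes held many MR49F BRG1 regions of every class, and the share in this class was 16.5% (30 of 182, 11.8% to 22.6%), near the background. Besides ABCC4, PMEPA1, an inhibitor of TGF-β signalling, had 3 regions of 12 to 16 tags, and KLK2, TMPRSS2, ACSL3, SORD, CENPN and TSC22D1 had 2 each. In the luminal list 7 of 10 genes had a region (21.9% of 64), KLK2 and TMPRSS2, which encode serine proteases, with 2 each.

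AP-1 factors, the FOS and JUN families and their relatives, had the highest share among lists with at least 20 MR49F BRG1 regions. Of their 40 MR49F BRG1 regions, 12 were in this class (30.0%, 18.1% to 45.4%), at 8 of 14 genes. FOS had 3 regions outside the gene with 12, 17 and 40 tags and neither LNCaP list had a peak assigned to it. The tallest, chr14:75293723-75296301, was 2579 bp wide, the widest of all the regions, and lay 12782 bp from FOS. JUNB had 2, with 30 and 29 tags, the second at its gene end. JUN, JUND, ATF3, BATF and MAFG had 1 each and MAFF 2. Receptor tyrosine kinases had a region at 13 of 24 genes (22 of 114 regions, 19.3%), with 3 each at EGFR, IGF1R and ROR2. The YAP and TEAD pathway list was at the other end: all 20 genes had an MR49F BRG1 region, and only 1 of their 62 was in this class (1.61%, 0.29% to 8.59%), at NF2 with 12 tags.

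SWI/SNF subunit genes had 11 of 69 regions in this class (15.9%), at 7 of 28 genes. ARID1B had 4, of 12 to 25 tags, and SMARCA4, which encodes BRG1, had 2, of 21 tags at its 5′ end and 25 tags inside the gene. Wnt pathway genes had 12 of 90 (13.3%), with 4 in LRP5, a Wnt coreceptor, and 2 in RNF43, a ligase that removes Wnt receptors. Cell cycle genes had 8 of 50 (16%), with MKI67 and MYC at 2 each, and genes of the epithelial-mesenchymal transition had 8 of 45 (17.8%), with SNAI1 and CDH1 at 2 each. Neuroendocrine genes had 4 of 35 (11.4%), at SYP, NEUROD1, ONECUT2 and SOX11. Fibroblast markers had 4 of 21 (19.05%) and leukocyte markers 1 of 6.

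Among lists of genes used in every cell, cytosolic ribosomal proteins had 20 of 123 regions in this class (16.3%), at 14 of 70 genes, 7 of them at a gene end. RPLP1 had 3 regions of 26 to 40 tags in its neighbourhood, over backgrounds of 8.89 to 10.6 tags, and RPL29 had 3 of 15 to 19 tags with no peak in any other list. Proteasome subunits had 6 of 39 (15.4%) at 5 of 31 genes, core splicing factors 7 of 42 (16.7%) at 5 of 30 genes and aminoacyl-tRNA synthetases 4 of 25 (16%) at 4 of 20 genes. Mitochondrial complex I subunits had 3 of 32 (9.38%, 3.24% to 24.2%), at NDUFA10 and NDUFA7, an interval that holds the 14.1% of all genes. These are 2 of 36 genes (5.56%, 1.54% to 18.1%), an interval below the 19.7% of all genes. However, only 55.6% of the 36 genes had any MR49F BRG1 region, against 68.6% of all genes. DNA repair genes had 8 of 31 (25.8%, 13.7% to 43.2%) at 5 of 24 genes, with ERCC1 at 2 regions of 23 tags each. HOX clusters had 7 of 35 (20%) and protocadherin clusters 3 of 4. Across the plotted lists, which have at least 20 MR49F BRG1 regions each, only the interval of the AP-1 list lay wholly above 14.1% and only that of the YAP and TEAD list wholly below it, which is a description of counts in 1 library.

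**Figure D5:**
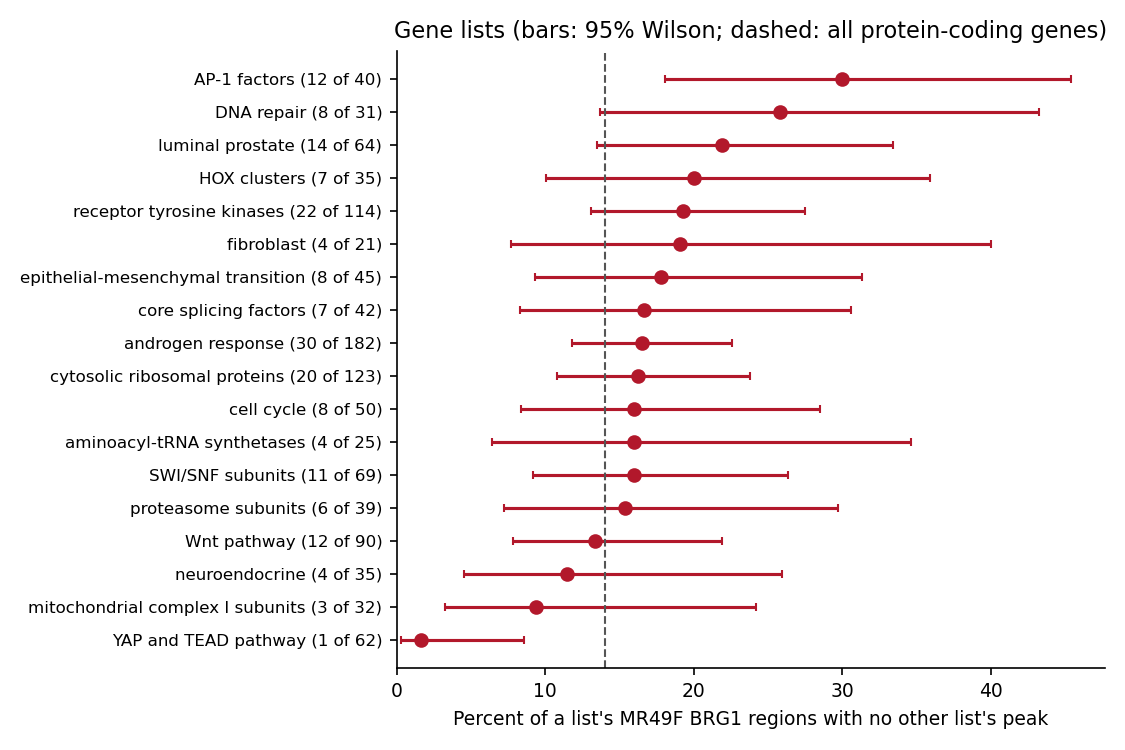
Percent of the MR49F BRG1 regions of a gene list that were called in MR49F BRG1 alone (x axis; counts in the row labels), for the lists described here with at least 20 such regions, with 95% Wilson intervals; the dashed line is the 14.1% of all protein-coding genes. AP-1 factors lie highest at 30.0% and the YAP and TEAD pathway lowest at 1.61%.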

How the data were processed

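ChIP-seq libraries of 2 antibodies in MR49F and LNCaP cells were used as deposited peak lists, 1 per library, with no pooling. Per the submitters' processing notes, the tools named were MACS2 2.1.0, BWA 0.7.10 and SAMtools and the build was hg38, with no roles stated. The control library, duplicate handling and read filters were not stated. In the deposited lists a peak has the authors' fold enrichment (a ratio over local background), a −log10 p-value, a −log10 q-value, a display score and the summit offset. The score was not used. The lowest deposited −log10 q-value is 2.00 to 2.01, a q-value threshold of 0.01.

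Summit pileup and local background were solved from fold (with a pseudocount of 1) and p-value under a Poisson model; all MR49F BRG1 pileups came out whole within 0.01 tags, and the lowest backgrounds put MR49F BRG1 at 1.09 times the depth of MR49F SMARCC2. Only 1.99% of LNCaP BRG1 and 1.91% of LNCaP SMARCC2 pileups came out whole. The LNCaP backgrounds used in the background ratios therefore lack this check. The solution was tested on simulated data. The median summit pileup was 27 tags in both MR49F lists, so low regions rest on few tags. Of the MR49F BRG1 list, 79 peaks on other contigs were left out. Python 3.11.15 was used with SciPy 1.17.1, pandas 2.3.3, NumPy 2.4.6 and, for plots, matplotlib 3.10.9. Genes and promoter sequences were from RefSeq (GRCh38.p14); sequences of regions away from promoters were not used here. Of 520 list entries, 519 matched, and ZNF genes on chromosome 19 were taken as a further list after the chromosome values were seen. Intervals are 95% Wilson intervals of counting error only. No p-value was computed.

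The regions, gene lists, motifs and rules were chosen with earlier results of these data known. Named genes were the 12 with most regions, the genes of the 10 strongest regions, and up to 2 genes per list with at least 2 regions; genes with 1 region are named as counts required, after their values were seen. Some named genes and 1 gene list are not reported here. Promoters printed were the 6 strongest outside annotated genes; 6 stronger ones inside genes were left out, a condition added later. Alternatives were other overlap rules, q-value limits, list lengths, chromosomes and gene distances.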

Additional observations from a re-analysis of the deposited data

How the results depend on the processing

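The number of regions called in MR49F BRG1 alone depends on what counts as shared. Against 5888, it was 12001 when summits within 200 bp were required, 11422 with a reciprocal overlap of at least 0.5 of each peak, 2378 with a −log10 q of 5 or more in the MR49F BRG1 list only, and 1686 among the 10000 strongest peaks of each list. It stayed within 1.5 times of 5888 with peaks within 500 bp joined (5035), a −log10 q of 5 or more in all lists (4230) and without chromosome X (5642). The share at gene ends, 17.8%, was 23.5% and 20.85% under the summit and reciprocal rules, 15.7% with 500 bp joining, 24.8% and 20.4% with the q limit in all lists and in MR49F BRG1 only, and 35.9% among the strongest peaks. It was 15.99% with starts only, without chromosome 8, and 9.95% within 500 bp, an alternative chosen after seeing the data. A q limit in the MR49F BRG1 list only removes weak regions by construction. Limits on all lists also remove peaks of the other lists, so shared regions can enter the class. The strongest slices of 4423 MR49F BRG1 peaks by −log10 q held 1, 7 and 43 of the 5888 regions. Most of the 1686 regions were therefore not among the 5888, and their share at gene ends does not describe the 5888. For the overlap rules the cause was not tested. Of 102 region counts of named genes, 64 moved by over 1.5 times, mostly with assignment within 10 kb or the q limit; STXBP5 had 1 region within 10 kb. Of 52 values of the other results, 15 stayed within their interval or within 1.5 times, and 37 moved. No paired analysis was possible because each line and antibody has 1 library and no test was made. Peaks give no tags below the threshold, so weak binding in the other libraries cannot be seen.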

Other observations

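The regions called in MR49F BRG1 alone also covered genes of small RNAs. tRNA genes, transcribed by RNA polymerase III, were overlapped at 11 of 443 loci by 10 of the regions, with pileups from 12 to 33 tags. Among them were TRL-AAG2-1 and TRV-AAC2-1, which share a region of 33 tags over a background of 8.14 tags, and TRY-GTA5-5 with 23 tags. Regions called in MR49F SMARCC2 alone overlapped 0 of 443, as did regions of LNCaP SMARCC2 alone, which allows a share of up to 0.677% (3 counts of 443), and regions of LNCaP BRG1 alone overlapped 11. Over whole lists, MR49F BRG1 peaks covered 43 tRNA genes and MR49F SMARCC2 peaks 21, and LNCaP BRG1 peaks 33 and LNCaP SMARCC2 peaks 2. Near-identical tRNA genes can share reads, so the locus of such a peak is uncertain.

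The regions overlapped 9 of 1911 miRNA genes, with pileups from 11 to 30 tags, among them MIR185 (11 tags) and MIR330 (15 tags), 4 of 1196 snoRNA genes and 0 of 154 snRNA genes. Of the 132 miRNA and 78 snoRNA genes that the whole MR49F BRG1 list covered, these are 6.82% (3.63% to 12.5%) and 5.13% (2.01% to 12.5%). For tRNA genes it is 25.6% of 43 (14.9% to 40.2%). The 13.7% of MR49F BRG1 regions in this class is no yardstick for these shares, because it counts regions and not genes. Regions in this class were also narrower, with a median of 506 bp against 1112 bp over all MR49F BRG1 regions. They covered 3.43 of 58.8 Mb. Regions in all 4 lists overlapped 73 miRNA genes. Zinc finger genes on chromosome 19 were looked at because that chromosome had the highest share. They held a region at 30 of 250 genes (12%, against 19.7% of all genes), 21 of the genes at a gene end. However, only 49.6% of the 250 genes had any MR49F BRG1 region, against 68.6% of all genes. Of their 170 MR49F BRG1 regions, 31 were in this class (18.2%, 13.2% to 24.7%). That share was 14.1% over all genes and 23.4% over all MR49F BRG1 regions of chromosome 19.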
